A study of Rattus norvegicus with 15 samples.

Results

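Mitochondrial ribosomal protein genes were taken as the rows whose gene name begins with Mrpl or Mrps and a number, the names of proteins of the large and of the small mitochondrial ribosomal subunit. The rule found 76 of the 30454 genes in the tables, with 75 different symbols because Mrps17 is listed under 2 identifiers; 31 rows carry small subunit names and 45 carry large subunit names. They were followed in 15 polyadenylated RNA libraries of femurs from female Sprague-Dawley rats. All animals were 8 weeks old at the start and had an operation with 6 weeks of recovery, followed by 8 weeks of daily gavage. The PJ group had both ovaries removed and received a combined extract of Juglans regia L., the walnut, and Psoralea corylifolia Linn. at 4.0 g per kg per day. The P group was also ovariectomized and received the Psoralea corylifolia Linn. extract alone at 2.4 g per kg per day, and the J group, ovariectomized as well, received the Juglans regia L. extract alone at 1.6 g per kg per day. The OVX group was ovariectomized and given saline, and the Sham group kept its ovaries, lost a similar amount of fat and carries a saline label. Each group has 3 libraries. The labels do not say that each library is 1 animal, so the spread between libraries may be partly technical, and a femur is a mixture of bone, marrow, cartilage and fat.

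Mitochondria carry their own ribosomes, which translate the small set of proteins encoded by mitochondrial DNA, all of them subunits of the respiratory chain and ATP synthase. The ribosomal RNAs come from mitochondrial DNA, whereas every mitochondrial ribosomal protein is encoded in the nucleus, translated in the cytosol and imported. Many of these proteins have a bacterial counterpart and many others are specific to mitochondria, and the mammalian particle is rich in protein and poor in RNA. In bone and marrow, mitochondrial content changes with the proliferation and maturation of blood cells and with the activity of osteoclasts and osteoblasts.

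The values are FPKM, fragments scaled by transcript length and by library depth, so that levels of different genes can be set side by side. Depth, recovered from the steps between low values, was 34341291 reads in Sham 3 to 61008341 reads in PJ 2. Among recovered counts of 1 to 20, 51.9 to 67.1% per library were even, so read ends may have been counted separately in part, and recovered reads may exceed the number of fragments. Of the 76 members, 72 had a mean of at least 1 FPKM over the 15 libraries and were tested, among 14416 genes in all. A gene was called higher or lower where its Benjamini-Hochberg adjusted p over all tested genes was under 0.05 in limma. The least deeply covered of the 72 members had 240 recovered reads in its lowest library. Over all genes some libraries stood apart from their groups. P 2 had 35.9% of its summed FPKM on the 13 mitochondrially encoded protein genes, against 17.6% in P 1 and 11.2% in P 3. PJ 3 had cartilage markers summing to 3.57 FPKM, against 430 and 592 FPKM in PJ 1 and PJ 2. Bone matrix markers, which check the labelled tissue, summed to 479 FPKM in Sham 2, 811 FPKM in Sham 1 and 5866 FPKM in Sham 3. Cartilage markers were almost absent in OVX, with sums of 1.31 to 1.74 FPKM, against 2052 to 4432 FPKM in Sham. Bone and cartilage markers thus differed between libraries of one group as well as between groups, and in a whole femur a change in RNA per cell and a change in the share of a cell type cannot be told apart.

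Nearly all members were well expressed and their levels varied little. The mean FPKM over 15 libraries of the 72 tested members lay between 3.08 for Mrpl47 and 61.7 for Mrpl17, with a median of 13.8. The 6 highest were Mrpl17, Mrpl20, Mrpl54, Mrpl27, Mrps21 and Mrpl43, and the 4 lowest were Mrpl47, Mrpl16, Mrpl40 and Mrpl30. Mrpl17, which has a bacterial counterpart of the same number, had 59.6, 62.6 and 58.3 FPKM in PJ, 65.7, 55.4 and 56.7 in P, 73.7, 55.0 and 65.7 in J, 74.5, 61.2 and 63.2 in OVX and 56.6, 50.8 and 65.8 in Sham. The groups overlapped for Mrpl17 in all 4 comparisons with OVX or Sham, and it was called in none. The median SD of a member over the 15 libraries was 0.22 on the log2(FPKM + 1) scale, against 0.41 for all tested genes. Within groups the members' median SD ran from 0.13 in OVX to 0.17 in J, and that of all tested genes from 0.16 in OVX to 0.27 in P. The 4 members not tested were the Mrpl42 pseudogene copy Mrpl42-ps2, listed at 0 in all 15 libraries, Mrps21l, listed at 0 in 13 libraries, and the rows of Mrps17, whose means were 0.444 and 0.186 FPKM.

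Summed over the mitochondrial ribosomal protein genes, the mean level was highest in OVX and lowest in Sham, though the single genes varied. The summed FPKM of these genes was 1168, 1151 and 1293 in PJ, 1305, 1188 and 1149 in P, 1424, 1212 and 1389 in J, 1494, 1282 and 1433 in OVX, and 992, 992 and 1156 in Sham. Every OVX library lay above every Sham library, and the J libraries overlapped the OVX ones. P 1 overlapped the OVX range, whereas of the PJ libraries only PJ 3 did. As shares of a library's summed FPKM, PJ 1 (0.285%) and PJ 3 (0.289%) both lay within the OVX range of 0.284 to 0.320%. P 2, at 0.227%, then lay below the Sham range of 0.229 to 0.270%. Of the 72 tested members, 36 had their highest group mean in OVX and 54 their lowest in Sham. Another 18 were highest in J, and 8 had their lowest mean in OVX. Over the 15 libraries the median correlation between 2 members was 0.40, with quartiles of 0.03 and 0.66. By the mean absolute log2 difference over the 72 members, the library most like each OVX library was another OVX library, while Sham 3 was nearest to PJ 1, J 2 to P 3, P 1 to PJ 1, P 2 to J 2, P 3 to PJ 2 and PJ 3 to J 2. The summed level of small subunit genes over that of large subunit genes lay between 0.591 and 0.677 in all 15 libraries, highest in PJ 3 and lowest in Sham 3. The 3 J libraries, at 0.645, 0.634 and 0.661, lay above every P, OVX and Sham library, of which the highest were 0.620, 0.616 and 0.609.

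**Figure D1:**
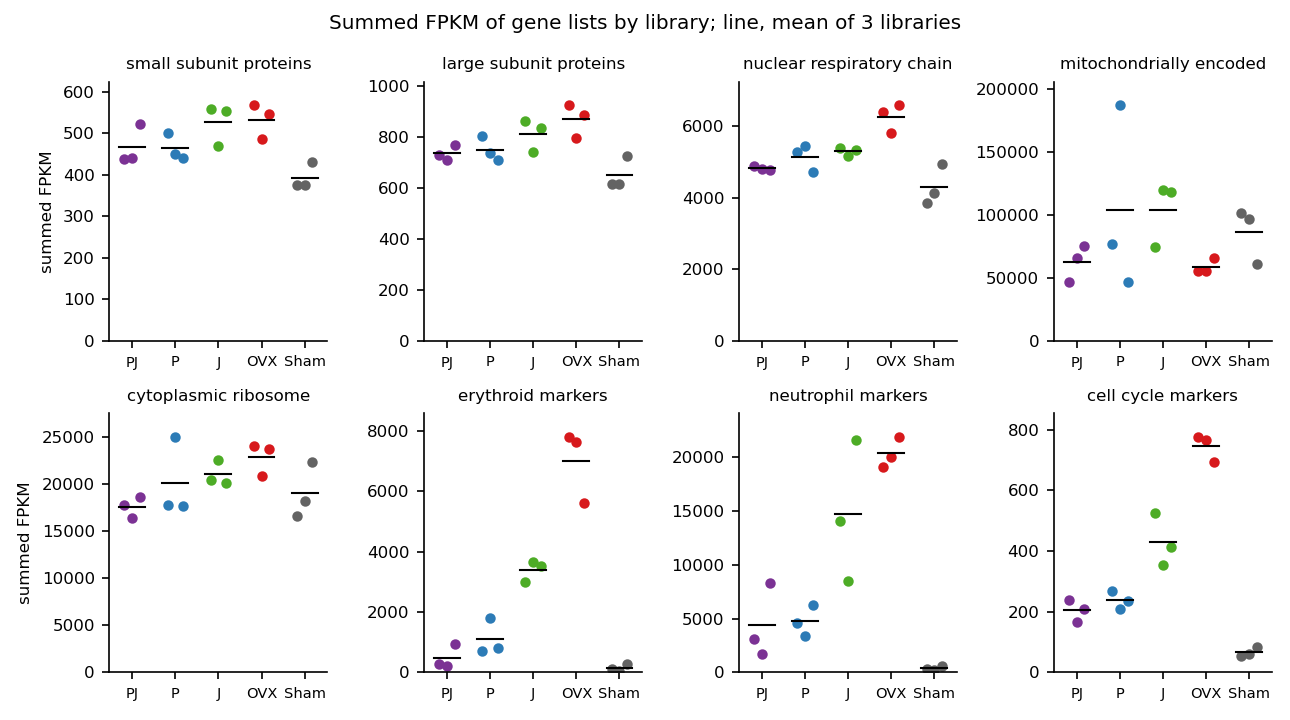
Summed FPKM (vertical axes, from 0) of 8 gene lists in each of the 15 libraries, with groups PJ, P, J, OVX and Sham from left to right; points are libraries and lines are means of 3. The OVX libraries hold 797 to 926 FPKM on the large subunit genes, against 616 to 726 FPKM in Sham, and the erythroid, neutrophil and cell cycle markers are far higher in OVX than in Sham.

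In OVX against Sham, 35 of the 72 tested members were called higher and 1, Mrps6, was called lower. Over all 14416 tested genes, 25.3% were called higher and 28.9% lower, so the members' shares were 48.6% and 1.39%. The median log2 fold change of the members was 0.35, against -0.04 over all genes, and 60 of the 72 were positive. The 28 small subunit genes gave 14 higher and 1 lower with a median of 0.40. The 44 large subunit genes gave 21 higher and 0 lower with a median of 0.24. At an unadjusted p under 0.05, 21 of the 44 were higher and 2 lower, given without the share of all genes at that threshold. Voom, a limma method for counts run on the recovered reads, called 1 of all 72 lower, against 28.2% of all tested genes. Among the 42 tested members with a bacterial counterpart 21 were called higher and 1 lower, and among the 30 outside those lists 14 and 0. In 36 members all 3 OVX libraries lay above all 3 Sham libraries, where 31.6% of all tested genes did so, and in 4 they lay below, where 34.5% did. Without Sham 1 or without Sham 2 the count of members called higher was 25 (34.7%, against 21.5% and 21.6% of all tested genes). The count of members called lower was 2 without PJ 2 and 2 without PJ 3, which enter this comparison only through the shared estimate of the spread. That is 2.78% of the members, where 28.4% and 29.7% of all tested genes were called lower.

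Among the small subunit genes, Mrps12 had the largest fold change. It encodes the counterpart of the bacterial protein of the same number at the decoding centre. Mrps12 had 15.6, 14.1 and 21.2 FPKM in PJ, 18.2, 21.0 and 18.1 in P, 34.0, 22.7 and 34.9 in J, 44.5, 33.0 and 33.6 in OVX, and 9.54, 11.1 and 16.2 in Sham. The OVX libraries were all above those of Sham, P and PJ, and the J libraries overlapped OVX. The log2 fold change in OVX against Sham was 1.54 ± 0.22 (SE, n = 3 libraries each; limma adjusted p = 7.77e-05). Mrps36 encodes a small protein first assigned to the ribosome and since placed in the 2-oxoglutarate dehydrogenase complex; RefSeq lists the rat gene as Kgd4. Mrps36 had 12.2, 13.0 and 12.9 FPKM in PJ, 14.0, 11.4 and 11.4 in P, 14.4, 13.2 and 15.5 in J, 23.2, 17.9 and 15.9 in OVX, and 7.80, 8.46 and 9.18 in Sham. Its OVX libraries were above all 12 others, and the log2 fold change in OVX against Sham was 1.06 ± 0.14 (SE; limma adjusted p = 4.13e-05). Mrps21 and Mrps10, both with bacterial counterparts, followed with log2 fold changes of 0.84 ± 0.14 and 0.82 ± 0.22 (SE). Mrps23 and Mrps34, which are specific to mitochondria, had means of 31.2 ± 3.11 and 14.8 ± 2.27 FPKM in OVX, against 20.1 ± 1.61 and 9.10 ± 1.30 FPKM in Sham (SD, n = 3 each), and both were called higher.

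Among the large subunit genes the highest fold changes belonged to proteins from several places on the particle. Mrpl18 encodes a protein of the central protuberance, the knob that faces the small subunit. It had 29.98, 29.7 and 31.8 FPKM in OVX, against 16.2, 15.9 and 14.6 FPKM in Sham, with no overlap and a log2 fold change of 0.93 ± 0.12 (SE; limma adjusted p = 3.59e-05). Mrpl33, with a bacterial counterpart, had 40.4, 34.2 and 35.1 FPKM in OVX, against 17.0, 21.8 and 18.2 FPKM in Sham, again without overlap, and a log2 fold change of 0.91 ± 0.16 (SE). Mrpl12, the protein of the flexible stalk that binds translation factors, and in human cells also a partner of the mitochondrial RNA polymerase, had 39.6, 29.3 and 36.7 FPKM in OVX, against 16.4, 16.2 and 24.0 FPKM in Sham. Its log2 fold change was 0.88 ± 0.20 (SE), whereas Mrpl10, the stalk's base, averaged 9.28 ± 1.05 FPKM in OVX and 8.42 ± 1.11 FPKM in Sham (SD, n = 3 each) and was not called (adjusted p = 0.546). Mrpl22, which lines the exit tunnel, and Mrpl45, which in human mitochondria anchors the particle to the inner membrane at the tunnel exit, were called higher with log2 fold changes of 0.71 ± 0.14 and 0.50 ± 0.11 (SE). Mrpl3, next to the peptidyl transferase centre in the bacterial particle, was called higher at 0.56 ± 0.14 (SE).

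The 36 members not called in OVX against Sham include genes of defined roles. Mrpl44, a protein related to ribonuclease III, averaged 8.71 ± 1.11 FPKM in OVX and 8.59 ± 0.914 FPKM in Sham (SD, n = 3 each), and the 95% interval of its log2 fold change ran from -0.29 to 0.32. Mrps18c averaged 6.16 ± 0.101 FPKM in OVX and 6.12 ± 0.754 FPKM in Sham, with an interval from -0.27 to 0.30. Mrps18c has the paralogs Mrps18a and Mrps18b, and none of the 3 was called in OVX against Sham, although Mrps18b had a log2 fold change of 0.32. Mrps18a and Mrps30 carry small subunit names but sit in the large subunit in mammalian structures; Mrps18a had a log2 fold change of -0.17 and was not called, and Mrps30 had 0.42 and was called higher. Mrpl58, a peptidyl-tRNA hydrolase built into the large subunit that releases stalled chains, averaged 20.6 ± 1.52 FPKM in OVX and 17.3 ± 1.80 FPKM in Sham and was not called (adjusted p = 0.218). Mrps5, Mrps7 and Mrps2, which have bacterial counterparts in the body and head of the small subunit, had log2 fold changes of 0.14, -0.16 and 0.26 and were not called. Mrpl41 had -0.11 and was not called. Mrps15, with a bacterial counterpart, averaged 15.5 ± 2.90 FPKM in OVX and 11.4 ± 1.63 FPKM in Sham (SD, n = 3 each) and was called higher at the edge of the threshold (adjusted p = 0.0488), a call kept in 10 of 26 alternative settings.

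Mrps6, whose bacterial counterpart lies on the platform of the small subunit, went the other way. It had 14.4, 15.7 and 22.7 FPKM in PJ, 15.4, 15.9 and 15.6 in P, 15.98, 16.7 and 15.98 in J, 9.44, 7.48 and 12.6 in OVX, and 13.7, 17.4 and 18.7 in Sham. The 3 OVX libraries lay below all 12 others, and the 6 P and J libraries all lay between 15.4 and 16.7. The log2 fold change of Mrps6 in OVX against Sham was -0.72 ± 0.19 (SE; limma adjusted p = 0.00598). Mrpl52 and Mrpl42, which are specific to mitochondria, also had all 3 OVX libraries below all 3 Sham libraries but missed the threshold. Mrpl52 had 6.81, 5.52 and 6.83 FPKM in OVX, against 7.76, 8.12 and 8.44 FPKM in Sham (log2 fold change -0.31 ± 0.14, SE; adjusted p = 0.0729). Mrpl42 had 9.48, 8.33 and 9.95 FPKM in OVX, against 11.9, 11.2 and 13.1 FPKM in Sham (log2 fold change -0.35 ± 0.15, SE; adjusted p = 0.0641).

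**Figure D2:**
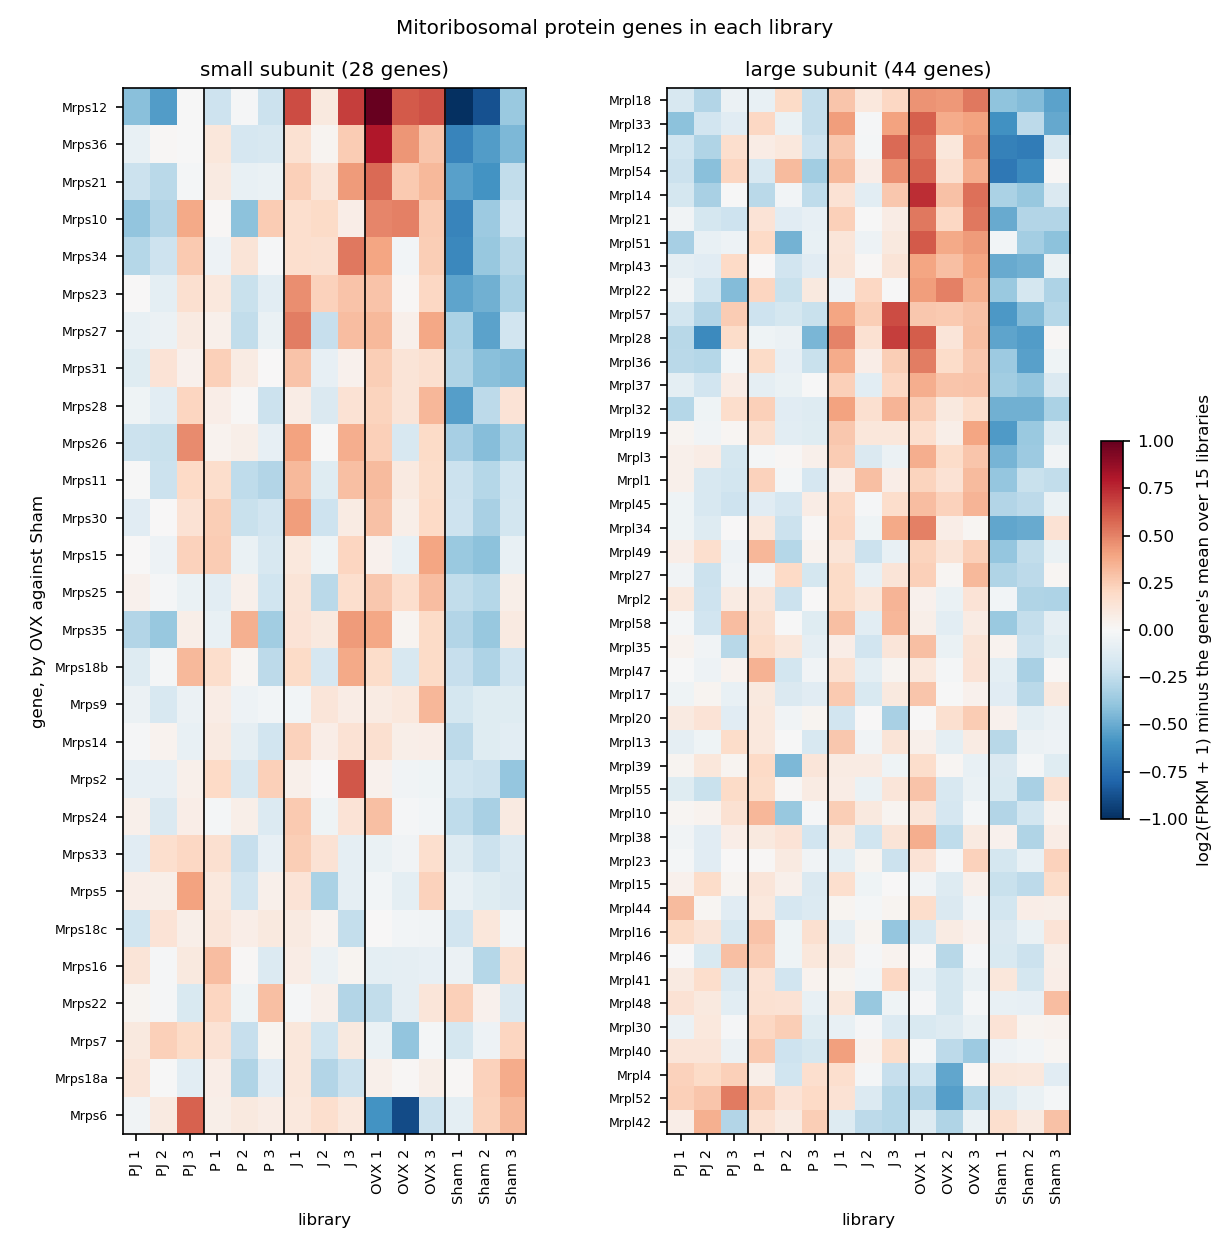
log2(FPKM + 1) minus the gene's mean over 15 libraries (colour, clipped at -1 and 1) for the 28 small and 44 large subunit genes tested; columns are libraries in the order PJ, P, J, OVX and Sham, and rows are ordered by the fold change in OVX against Sham. In the upper rows the OVX columns are mostly red, for genes above their mean, and the Sham columns mostly blue; at the foot Mrps6, Mrpl52 and Mrpl42 are blue in OVX.

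Promoter sequence from RefSeq (GRCr8 assembly; 250 bases before to 50 after the start site) was at hand for 58 of the 75 symbols. The sequences below are those of the 5 members called higher in OVX against Sham with the largest fold changes among those whose stretch from 120 bases before to 30 bases after the start holds at least 1 of 3 motifs, together with Mrps6, the member called lower. They are shown because these motifs belong to factors known for nuclear genes of mitochondrial proteins: CCGGAAG, bound by ETS factors including the nuclear respiratory factor GABP; the Nrf1 palindrome, bound by Nrf1; and AAGATGGC, bound by Yy1. The E-box CACGTG and the TATA box TATAAA, were counted for comparison. Both strands were searched. Capitals mark matches to any of these motifs.
Mrpl33, chr6:30553958-30554107, minus strand: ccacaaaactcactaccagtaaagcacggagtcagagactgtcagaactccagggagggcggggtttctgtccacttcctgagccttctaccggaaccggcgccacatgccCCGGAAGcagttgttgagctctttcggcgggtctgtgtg
Mrps10, chr9:21122424-21122573, minus strand: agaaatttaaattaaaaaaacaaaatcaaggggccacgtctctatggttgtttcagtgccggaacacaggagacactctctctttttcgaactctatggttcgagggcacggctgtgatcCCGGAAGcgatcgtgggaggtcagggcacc
Mrpl57, chr15:36086337-36086486, plus strand: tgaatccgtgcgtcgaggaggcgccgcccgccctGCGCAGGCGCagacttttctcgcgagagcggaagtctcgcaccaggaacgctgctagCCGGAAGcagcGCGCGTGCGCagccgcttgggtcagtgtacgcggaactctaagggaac
Mrpl36, chr1:31795092-31795241, minus strand: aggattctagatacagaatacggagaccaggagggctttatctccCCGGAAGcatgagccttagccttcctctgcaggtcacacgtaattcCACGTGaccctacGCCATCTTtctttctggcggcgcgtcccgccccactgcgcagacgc
Mrpl37, chr5:127074938-127075087, minus strand: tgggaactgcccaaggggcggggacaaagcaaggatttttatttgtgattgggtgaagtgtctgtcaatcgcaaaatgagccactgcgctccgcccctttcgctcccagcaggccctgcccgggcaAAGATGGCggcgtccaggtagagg
Mrps6, chr11:44778547-44778696, plus strand: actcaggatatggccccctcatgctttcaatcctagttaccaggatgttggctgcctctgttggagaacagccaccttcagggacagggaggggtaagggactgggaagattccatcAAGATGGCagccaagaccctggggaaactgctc
In Mrpl33 and Mrps10 the capitals are an ETS motif beginning at positions -9 and 1 from the start site, and in Mrpl37 and Mrps6 they are a Yy1 motif beginning at positions 7 and -3. Mrpl57 holds an ETS motif at -29 between Nrf1 motifs at -86 and -18, of which the second is on the opposite strand. Mrpl36 holds an ETS motif at -75, an E-box at -29 and, on the opposite strand, a Yy1 motif at -16.

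Over the whole 300-base windows, 20 of the 58 members with an entry (34.5%) held the ETS motif, against 11.6% of 19005 protein coding genes. The Yy1 motif was in 14 (24.1%), against 4.08% of coding genes, and the Nrf1 motif in 9 (15.5%), against 6.20%. The E-box was in 6 members (10.3%), against 7.69%, and the TATA box in 8 (13.8%), against 14.0%. The median GC content was 55.7% in members and 55.0% in coding genes, with medians of 18 and 11 CpG dinucleotides. Members called higher in OVX against Sham and the other members held the motifs in similar numbers. Of the 28 called higher with an entry, 9 held the ETS motif, 4 the Nrf1 motif and 7 the Yy1 motif. Of the other 30 with an entry, among them Mrps6, which was called lower, 11, 5 and 7 did. These matches are descriptions of the letters only. Of genes of these factors, Gabpa and Gabpb1, which encode the subunits of GABP, were not called in any of the 4 comparisons with OVX or Sham, with log2 fold changes of 0.25 and 0.46 in OVX against Sham. Nrf1 averaged 7.31 ± 0.260 FPKM in PJ, 6.71 ± 0.666 in P, 8.29 ± 0.772 in J, 9.63 ± 0.569 in OVX and 5.64 ± 0.0629 in Sham (SD, n = 3 each). Nrf1 was called higher in OVX against Sham (log2 fold change 0.68 ± 0.11, SE) and lower in P and PJ against OVX (-0.47 and -0.36). Yy1 was called higher in OVX against Sham (0.52 ± 0.17, SE) and lower in P against OVX (-0.46), and was not called in PJ against OVX (-0.30; adjusted p = 0.169).

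**Figure D3:**
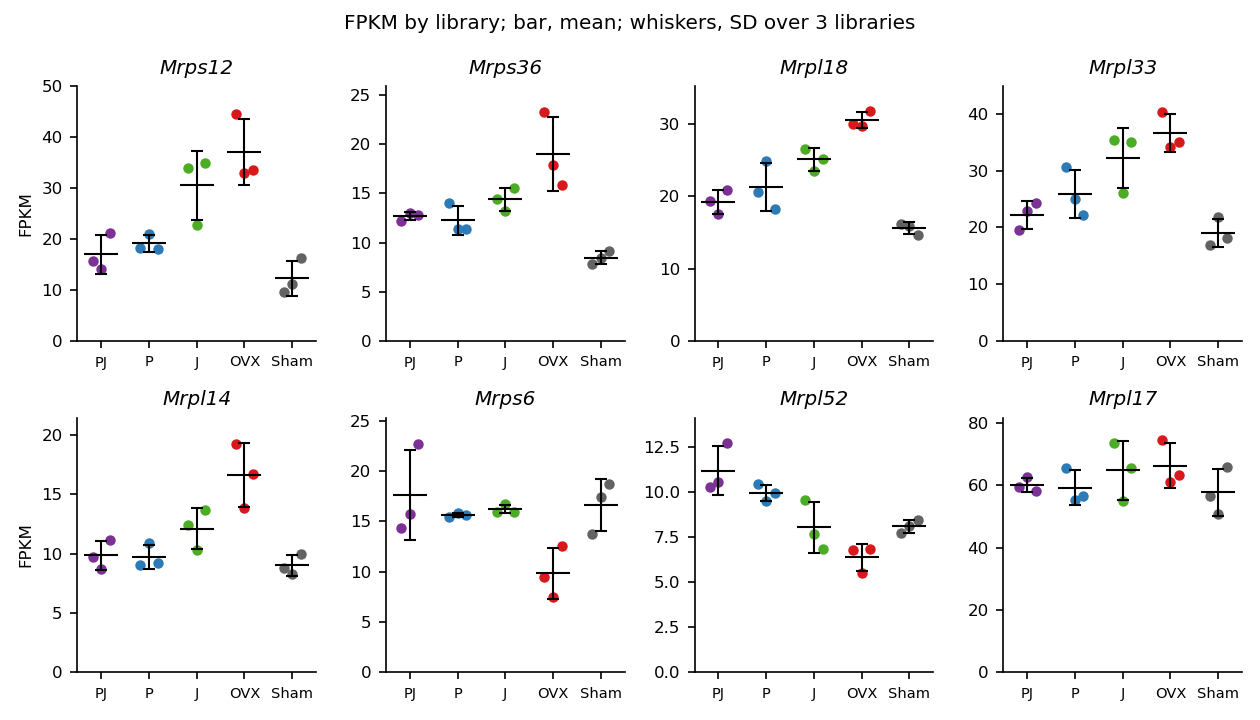
FPKM of 8 members (vertical axes, from 0) in each library; points are libraries, the bar is the mean and the whiskers the SD of 3 libraries, with groups PJ, P, J, OVX and Sham from left to right. Mrps12, Mrps36, Mrpl18, Mrpl33 and Mrpl14 are highest in OVX, Mrps6 and Mrpl52 are lowest there, and Mrpl17 overlaps across the groups.

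The comparisons of PJ, P and J with OVX share the OVX libraries with the comparison above, so opposite signs in them are in part built in, and each comparison is given by its own values. In PJ against OVX, 14 of the 72 members were called lower and 3 higher, where 14.6% of all tested genes were called lower and 29.8% higher. The members' shares were 19.4% lower and 4.17% higher, and their median log2 fold change was -0.14, against 0.22 over all genes. The median-ratio scaling of the libraries, which sets the median of all genes near 0 (-0.03), gave 42 members lower and 2 higher with a median of -0.42; the shares were 58.3% and 2.78% of the members, against 24.8% and 20.8% of all tested genes. Rescaling to a fixed sum gave 7 lower and 3 higher, or 9.72% and 4.17% of the members, against 10.7% and 31.5% of all tested genes, so the lower share there was below that of all genes. In 22 members all 3 PJ libraries lay below all 3 OVX libraries, where 19.2% of all tested genes did so, and in 6 they lay above, where 39.3% did.

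Mrps12 was again first in PJ against OVX, at -1.09 ± 0.22 (SE; limma adjusted p = 0.00172). In Mrpl18 the log2 fold change was -0.64 ± 0.12 (SE), with means of 19.3 ± 1.66 FPKM in PJ and 30.5 ± 1.12 FPKM in OVX (SD). Mrpl14, a protein of the subunit interface that in human mitochondria binds the assembly factor MALSU1, had 9.74, 8.71 and 11.1 FPKM in PJ, against 19.3, 13.8 and 16.8 FPKM in OVX. The groups did not overlap, and the log2 fold change was -0.69 ± 0.15 (SE; adjusted p = 0.00271). Mrpl22, Mrpl33, Mrpl21, Mrpl51, Mrps21, Mrps36, Mrpl36, Mrpl45, Mrpl37, Mrpl43 and Mrps9 were called lower as well, with log2 fold changes between -0.70 for Mrpl33 and -0.27 for Mrps9; the call of Mrps9 was kept in 8 of 26 alternative settings and that of Mrpl43 in 16. The 3 called higher were Mrps6, at 0.78 ± 0.19 (SE), Mrpl52, and Mrpl4, the counterpart of a bacterial protein that reaches into the exit tunnel. Mrpl52 had 10.3, 10.6 and 12.7 FPKM in PJ, against 6.81, 5.52 and 6.83 FPKM in OVX, without overlap (0.72 ± 0.14, SE; adjusted p = 0.00102). Mrpl4 had 24.5, 23.8 and 24.6 FPKM in PJ, against 17.96, 14.1 and 21.0 FPKM in OVX (0.45 ± 0.16, SE; adjusted p = 0.0313).

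In P against OVX, 13 members were called lower and 2 higher, where 15.0% of all tested genes were called lower and 24.2% higher; the members' shares were 18.1% and 2.78%. In 20 members all 3 P libraries lay below all 3 OVX libraries, where 20.8% of all tested genes did so, and in 4 they lay above, where 30.1% did. Their median log2 fold change was -0.16, against 0.12 over all genes. Median-ratio scaling gave 32 lower and 1 higher, or 44.4% and 1.39% of the members, where 23.5% and 19.4% of all tested genes were called. Rescaling to a fixed sum gave 7 lower and 2 higher, or 9.72% and 2.78%, where 12.1% and 22.2% of all tested genes were called. Leaving out OVX 1 brought the number called lower to 4 (5.56%, against 11.3% of all tested genes), leaving out OVX 3 to 6 (8.33%, against 12.6%), leaving out P 2 to 7 (9.72%, against 13.0%) and leaving out P 3 to 7 as well (against 13.6%). The members' share called lower was thus above that of all genes as deposited and below it in these 4 fits and after rescaling to a fixed sum. It was also below in a fit of the 2 groups alone (11.1%, against 13.5%) and without both P 2 and PJ 3 (13.9%, against 14.6%). Mrps12 at -0.91 ± 0.22, Mrpl14 at -0.71 ± 0.15, Mrps36 at -0.58 ± 0.14 and Mrpl18 at -0.51 ± 0.12 (SE) were called lower as deposited and in all 26 alternative settings. The other 9, Mrpl51, Mrpl43, Mrpl33, Mrpl57, Mrpl21, Mrps21, Mrpl22, Mrpl37 and Mrpl45, had log2 fold changes between -0.59 and -0.36, and Mrpl22 kept its call in 8 of the 26. The 2 called higher were Mrps6, at 0.65 ± 0.19 (SE), and Mrpl52, with 10.4, 9.50 and 9.96 FPKM in P, against 6.81, 5.52 and 6.83 FPKM in OVX (0.57 ± 0.14, SE; adjusted p = 0.00522). The count called higher was 1 without OVX 1 or without OVX 2 (1.39%, against 17.4% and 17.9% of all tested genes).

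In J against OVX, 1 member was called higher and 0 lower, where 3.27% of all tested genes were called higher and 2.79% lower. At an unadjusted p under 0.05, 2 members were higher and 7 lower, and voom called 0 in either direction. The median log2 fold change of the members was -0.04, against 0.11 over all genes. The member called was Mrps6, at 0.70 ± 0.19 (SE; adjusted p = 0.0489), and the call was kept in 9 of 26 alternative settings; it was lost on leaving out any of the 3 Sham libraries, any J library, OVX 1, OVX 2, P 1, P 3, PJ 1 or PJ 2. The lowest p among negative members belonged to Mrpl14, Mrpl22 and Mrpl20, whose log2 fold changes were -0.42, -0.38 and -0.31 and which were not called. In 9 members all 3 J libraries lay below all 3 OVX libraries, where 14.3% of all tested genes did so, and in 5 above, where 23.3% did. Mrps12 averaged 30.6 ± 6.79 FPKM in J and 37.0 ± 6.50 FPKM in OVX (SD, n = 3 each), and the 95% interval of its log2 fold change ran from -0.76 to 0.20. That a member was called in PJ or P and not in J does not show a difference between the extracts, which is tested next.

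**Figure D4:**
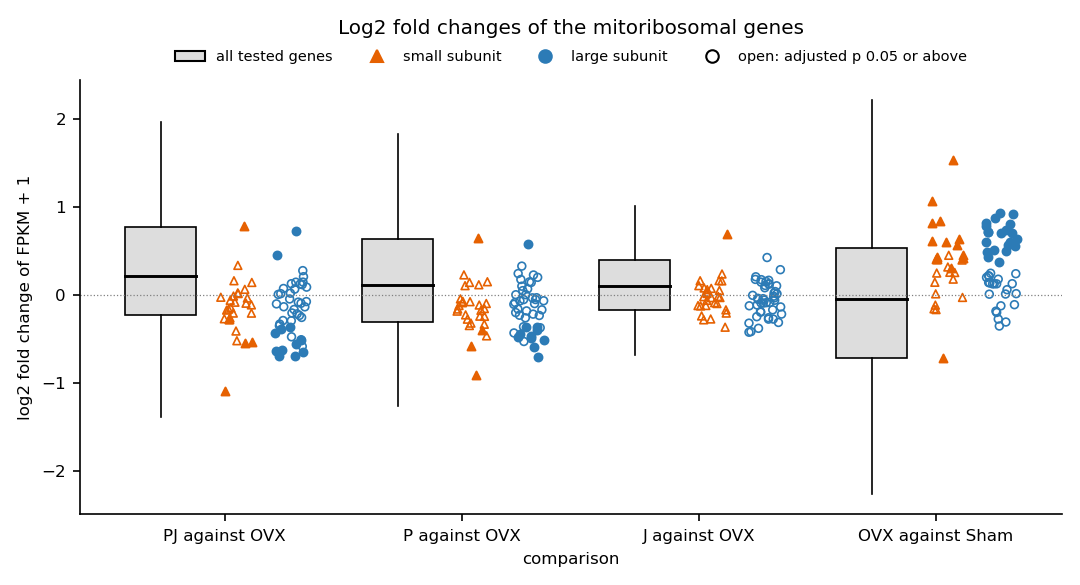
Log2 fold changes of the members (points; filled where called) beside all 14416 tested genes (boxes: quartiles and median; whiskers: 5th to 95th percentile) in 4 comparisons, each with the treated or ovariectomized group on top of the fold change. The members' median is 0.35 in OVX against Sham and lies below the median of all genes in the other 3 comparisons.

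The extracts were compared with one another although their daily amounts differ, so these values set different doses side by side. In PJ against J, 1 member was called higher and 2 lower, where 8.38% of all tested genes were called higher and 5.88% lower. Mrps12 was lower, with 15.6, 14.1 and 21.2 FPKM in PJ, against 34.0, 22.7 and 34.9 FPKM in J and no overlap (-0.81 ± 0.22, SE; adjusted p = 0.0305). Mrpl57, a small protein specific to mitochondria, was also called lower (-0.50 ± 0.15, SE; adjusted p = 0.0478) and Mrpl52 higher (0.44 ± 0.14, SE; adjusted p = 0.049). Mrpl28, a large subunit protein with a bacterial counterpart, had 15.2, 11.6 and 21.3 FPKM in PJ, against 26.7, 20.7 and 30.6 FPKM in J; the groups overlapped and it was not called (-0.69 ± 0.23, SE; adjusted p = 0.0668). With single libraries left out, between 0 and 9 members were called lower. The number was 9 without PJ 3 (12.5% of the members, against 10.6% of all tested genes) and 5 without P 2 (6.94%, against 6.95%). It was 0 without J 1, J 3, PJ 1 or PJ 2, where 1.87 to 3.15% of all tested genes were called lower. It was 1 without Sham 1, Sham 2, any 1 of the OVX libraries or P 3, where 5.08 to 5.67% of all tested genes were. The members' share thus rose about as that of all genes did. The call of Mrps12 was kept in 20 of 26 alternative settings, that of Mrpl57 in 9 and that of Mrpl52 in 6. In 16 members all 3 PJ libraries lay below all 3 J libraries, where 10.5% of all tested genes did so, and in 2 above, where 22.5% did. The members' median was -0.10 as deposited and 0.067 after rescaling to a fixed sum, against medians over all genes of 0.14 and 0.31. In P against J, Mrpl57 alone was called lower and 0 members higher, where 3.05% and 4.37% of all tested genes were. Mrpl57 had 5.12, 5.25 and 5.04 FPKM in P, against 8.28, 7.35 and 10.1 FPKM in J (-0.63 ± 0.15, SE; adjusted p = 0.0389), and kept its call in 14 of 26 alternative settings; it was lost on leaving out Sham 1, Sham 2, OVX 1, OVX 2, J 1, J 3 or any of the P libraries. Without PJ 3, 2 members were called lower and 1 higher (2.78% and 1.39%, against 6.98% and 8.87% of all tested genes). In 8 members all 3 P libraries lay below all 3 J libraries, where 12.9% of all tested genes did so, and in 1 above, where 16.7% did. In PJ against P, 0 members were called in either direction, as were 0.0% of all tested genes, and 0 members had an unadjusted p under 0.05; voom also called 0 members. In 1 member each the PJ libraries lay wholly above or wholly below the P libraries, where 2.8% and 1.22% of all tested genes did. The members' log2 fold changes ran from -0.25 for Mrpl22 to 0.21 for Mrpl4, and the 95% interval for Mrps12 ran from -0.66 to 0.30. The F test over the 5 groups called 25 members (34.7%), where 50.0% of all tested genes were called.

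OVX against Sham has no library in common with PJ against J or with P against J, so the members' fold changes can be set against each other there without a shared group. Across the 72 members the log2 fold changes in OVX against Sham and in PJ against J had Pearson r = -0.80 and Spearman rho = -0.82; with P against J they were -0.70 and -0.73, and with PJ against P -0.38 and -0.33. Over all 14416 tested genes Pearson r was -0.79, -0.84 and -0.08 in the same order. PJ against J and P against J share the J libraries. Members share libraries and depth, so these values are descriptions over genes. Of the 35 members called higher in OVX against Sham, 34 had a negative value in PJ against J and 33 in P against J. Of the other 37, 18 and 19 did. The matching counts over all tested genes were not taken. With r of -0.79 and -0.84 over all genes, the members' counts cannot be read as particular to them.

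**Figure D5:**
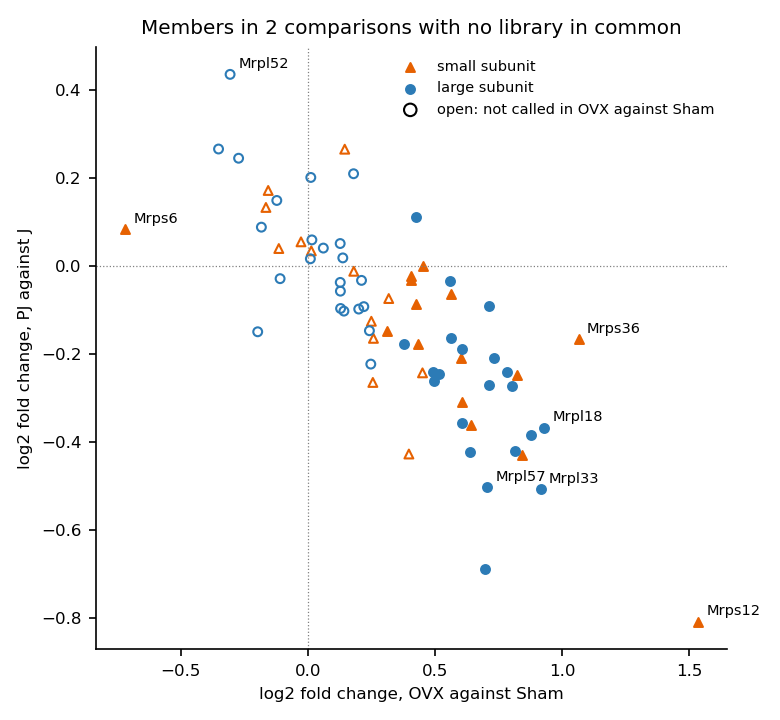
Log2 fold change of each tested member in OVX against Sham (horizontal axis) and in PJ against J (vertical axis), which have no library in common; triangles are small subunit genes, circles large subunit genes, and filled symbols are members called in OVX against Sham. The points fall from Mrpl52 at the upper left to Mrps12 at the lower right (Pearson r = -0.80 over 72 members).

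Some members share ground with other genes. In the RefSeq annotation (GRCr8), 19 of 74 members found there overlap another gene and 23 have named pseudogene or gene copies, 9 of them for Mrpl30. The labels do not say whether strand was kept, so reads of overlapping genes cannot be told apart where they share sequence. The overlapping gene moved the same way in several cases. Ska3, a kinetochore gene that overlaps Mrpl57, averaged 5.62 ± 1.17 FPKM in PJ, 6.81 ± 0.780 in P, 12.7 ± 3.74 in J, 17.2 ± 1.82 in OVX and 2.95 ± 0.596 in Sham (SD, n = 3 each). Ssbp3, which overlaps Mrpl37, was called higher in OVX against Sham (1.25) and lower in PJ, P and J against OVX (-1.06, -1.10 and -0.74). Eme1, which overlaps Mrpl27, was called higher in OVX against Sham (2.73). For several members with large changes the neighbour was not called: LOC103689966, which overlaps Mrps12, had a mean of 1.402 FPKM over the 15 libraries and was not called in any of the 4 comparisons with OVX or Sham, nor was Slc5a3, which overlaps Mrps6 and had a mean of 1.077 FPKM. Twnk and Gemin5, which overlap Mrpl43 and Mrpl22, were not called in those 4 comparisons either. RefSeq names 3 pseudogenes and 1 other gene as copies of Mrps36, and its reads may be split with them.

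Other genes of mitochondrial translation were read against the same backgrounds, from lists put together with earlier results of these data known. The otherwise named ribosomal proteins (4 tested) gave 1 higher and 0 lower in OVX against Sham, where 25.3% and 28.9% of all tested genes were called. That 1 was Gadd45gip1, with 17.1 ± 1.84 FPKM in OVX and 10.5 ± 0.600 FPKM in Sham (SD, n = 3 each), and it was called lower in PJ and P against OVX (-0.37 and -0.39). Ptcd3, a pentatricopeptide repeat protein of the small subunit, was called higher in PJ against OVX (0.35) and was not called in OVX against Sham. Of 17 translation factors, 5 were called higher in OVX against Sham, among them the elongation factors Tufm (0.54) and Tsfm (0.58), and 2 lower, the recycling factor Mrrf (-0.61) and the formyltransferase Mtfmt (-0.53). These are shares of 29.4% and 11.8%, where 25.3% and 28.9% of all tested genes were called. In PJ against OVX 0 of the 17 were called by limma, with 3 higher and 1 lower at an unadjusted p under 0.05. In P against OVX 1 was higher, Mtfmt, and 1 lower, Tufm. Against OVX, 29.8% of all tested genes were called higher and 14.6% lower in PJ, and 24.2% and 15.0% in P.

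Of 23 tested assembly and rRNA modification factors, 5 were called higher and 3 lower in OVX against Sham, shares of 21.7% and 13.0% where 25.3% and 28.9% of all tested genes were called. The methyltransferase Mrm1, the assembly factor Mterf3 and the helicase Ddx28 were higher, at 1.11, 0.78 and 0.80. Malsu1, the partner of Mrpl14 in human cells, averaged 11.4 ± 2.46 FPKM in PJ, 11.1 ± 1.17 in P, 7.94 ± 1.00 in J, 5.90 ± 2.03 in OVX and 12.7 ± 3.32 in Sham (SD, n = 3 each), opposite to Mrpl14. It was called lower in OVX against Sham (-0.996 ± 0.23, SE) and higher in PJ and P against OVX (0.86 and 0.85). Tfb1m, which methylates the small ribosomal RNA, was called lower in OVX against Sham (-0.73) and higher in PJ and P against OVX (0.50 and 0.43). In PJ against OVX 4 of the 23 were higher and 3 lower, where 29.8% and 14.6% of all tested genes were. In P against OVX 2 were higher and 3 lower, where 24.2% and 15.0% of all tested genes were. Of 16 tRNA synthetases, 5 were higher and 2 lower in OVX against Sham, with Pars2 at 1.07 and Wars2 at -0.51. The shares of all tested genes to set beside these counts and the next are again 25.3% higher and 28.9% lower. Of 12 regulators of mitochondrial transcription and biogenesis, 3 were higher, Nrf1, Yy1 and Tfam, which is near the share of all genes. The 1 called lower was the RNA polymerase Polrmt (-0.61), which was higher in PJ and P against OVX (0.75 and 0.62).

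The respiratory chain is built from nuclear products and from the proteins made on the mitochondrial ribosome. Of 78 tested nuclear genes of the respiratory chain and ATP synthase, 42 were called higher and 4 lower in OVX against Sham (53.8% and 5.13%). Their median was 0.44, and 25.3% and 28.9% of all tested genes were called there. In PJ against OVX 4 of the 78 were higher and 25 lower, where 29.8% and 14.6% of all tested genes were. In P against OVX 3 were higher and 17 lower, where 24.2% and 15.0% of all tested genes were. In J against OVX 0 were higher and 5 lower, where 3.27% and 2.79% of all tested genes were. Of the 13 mitochondrially encoded protein genes, which the mitochondrial ribosome translates, 0 were called in any of the 4 comparisons by limma, and their median log2 fold change in OVX against Sham was -0.68. At an unadjusted p under 0.05, 2 were lower in OVX against Sham, 5 higher in P against OVX, and 0 in J or PJ against OVX had such a p. In J against OVX 11 of the 13 had all 3 J libraries above all 3 OVX libraries, where 23.3% of all tested genes did so, and their median log2 fold change was 0.85. Their sums were 74594 to 119999 FPKM in J, against 55177 to 65831 FPKM in OVX, without overlap. They summed to 55177 to 65831 FPKM in OVX, against 60988 to 101834 FPKM in Sham, and the ranges overlapped. Their RNA is measured here through a polyadenylation step, and their levels reached 187417 FPKM in P 2. Of 86 cytoplasmic ribosomal protein genes, 20 were called higher and 3 lower in OVX against Sham, with a median of 0.31. These are shares of 23.3% and 3.49%, where 25.3% and 28.9% of all tested genes were called. In PJ against OVX 16 of the 86 were lower and in P against OVX 7, where 14.6% and 15.0% of all tested genes were. The share in P was thus below that of all genes.

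Erythroid, neutrophil and cell cycle markers had, like the summed members, their highest mean sum in OVX and their lowest in Sham. The 5 B cell markers did not peak in OVX. They summed to 288 to 670 FPKM in PJ, 141 to 524 in P, 482 to 1040 in J, 326 to 510 in OVX and 48.1 to 186 in Sham. In J the erythroid and cell cycle sums lay wholly below OVX, whereas the neutrophil and member sums overlapped OVX. The part of these markers in the results was not tested. The 8 erythroid markers summed to 198 to 948 FPKM in PJ, 717 to 1807 in P, 2994 to 3655 in J, 5618 to 7817 in OVX and 51.1 to 279 in Sham, and all 8 were called higher in OVX against Sham and lower in PJ and P against OVX. The 8 cell cycle markers summed to 165 to 238 FPKM in PJ, 210 to 269 in P, 354 to 524 in J, 695 to 777 in OVX and 55.7 to 83.3 in Sham, with all 8 called higher in OVX against Sham and lower in PJ and P against OVX. All 7 tested neutrophil markers were called higher in OVX against Sham, with sums of 19122 to 21932 FPKM in OVX and 244 to 591 FPKM in Sham. Of the 5 tested cartilage markers all were called lower in OVX against Sham. Adipocyte markers summed to 2579 to 4184 FPKM in PJ and 112 to 1262 FPKM in OVX, and all 7 were called higher in PJ. Bone matrix markers summed to 1439 to 7328 FPKM in PJ, 1460 to 10760 in P and 315 to 627 in OVX, and of the 8, 4 were called higher in PJ and 6 in P against OVX. Osteoclast markers summed to 1107 to 2671 FPKM in PJ, 551 to 2392 in P and 140 to 290.1 in OVX, and 4 of the 5 were called higher in PJ and in P against OVX. Rescaling the libraries after leaving mitochondrially encoded and globin genes out of the sum gave 26 members higher and 4 lower in OVX against Sham. These are 36.1% and 5.56% of the members, against 22.7% and 33% of all tested genes. In PJ against OVX it gave 13 lower and 4 higher (18.1% and 5.56%, against 14.4% and 31.9%). In P against OVX it gave 11 lower and 3 higher (15.3% and 4.17%, against 13.7% and 27.7%).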

How the data were processed

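The 15 libraries, 3 per group, hold polyadenylated RNA from rat femur. Per the submitters' processing notes, fastp 0.23.4, STAR 2.7.11a and featureCounts 2.0.6 were used with the mRatBN7.2 build; whether strand was kept is stated nowhere in the labels. The authors deposited FPKM values in columns headed as counts, normalized for length and depth, and the values here are used as deposited. The low values step in whole reads for all 24207 genes above 0 (tolerance 0.05 reads), from which totals of 34341291 to 61008341 reads per library were recovered.

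log2(FPKM + 1) of the 14416 genes with a mean of at least 1 FPKM was fitted with limma 3.58.1 (R 4.3.3; empirical Bayes with trend) over all 15 libraries, leaving 10 residual degrees of freedom. 7 comparisons and an F test were read two-sided with Benjamini-Hochberg adjustment over all tested genes. Fold changes on this scale understate those of low genes. Counts at an unadjusted p under 0.05 are given without the share of all tested genes at that threshold and are not read as results.

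Genes named were, per comparison, up to 6 called members in each direction by smallest p, up to 3 between extracts, the members farthest from the members' median, the highest and lowest expressed, and members of known role. Overlapping genes and Mrps23, Mrps34, Mrpl28 and Mrpl42 were chosen after their values were seen. The members and lists were chosen with earlier results of these data known. Alternatives covered pseudocount, filter, scaling, library weights, replicate block, libraries in the fit and each library left out; voom on recovered reads and leaving out P 2 with PJ 3 were added after seeing the data. Promoters and neighbouring genes come from RefSeq (GRCr8), used for names and sequence only.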

Additional observations from a re-analysis of the deposited data

How the results depend on the processing

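Across 26 alternative settings 0 of the members' calls turned direction; 844 of 936 values of the calls in OVX against Sham stayed past the threshold, 395 of 442 in PJ against OVX, 327 of 390 in P against OVX, 9 of 26 in J against OVX, 35 of 78 in PJ against J and 14 of 26 in P against J. The cause of each change below was not tested.

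In this paragraph, percentages in brackets are the shares of all tested genes called in the same direction. For the F test such a share was taken only in the fit as deposited (50.0%). Its counts here and in the paragraphs below therefore cannot be told from a move of all genes. Array weights gave P 2 and PJ 3 weights of 0.19 and 0.21. With them 44 members were higher and 4 lower in OVX against Sham (32.9% and 35%). Against OVX, 3 were higher and 3 lower in J (19% and 8.32%), 6 and 16 in P (36.6% and 18.5%) and 7 and 24 in PJ (43.1% and 21.6%). In P against J 2 were higher and 7 lower (16.7% and 12.4%), and in PJ against J 3 and 22 (31.0% and 20.3%). The F test called 50. Median-ratio scaling gave 0 higher and 3 lower in J against OVX (2.91% and 6.57%). In P against OVX it gave 1 higher and 32 lower (19.4% and 23.5%), with a members' median of -0.33. In PJ against OVX it gave 2 higher and 42 lower (20.8% and 24.8%), with a median of -0.42. It gave 2 lower in P against J (5.85%). In PJ against J it gave 0 higher and 11 lower (4.59% and 10.1%), with a median of -0.26. Rescaling to TPM gave 0 higher in J (1.65%), 7 lower in P (12.1%) and 7 lower in PJ (10.7%) against OVX. It gave 0 lower in P against J (0.479%) and 0 lower in PJ against J (3.93%), there with a members' median of 0.067. The F test called 13. This rescaling moved the median of all genes in PJ against OVX to 0.34. Leaving mitochondrially encoded and globin genes out of the sum gave 4 lower in OVX against Sham and 4 lower in PJ against J. Each is 5.56% of the members, against 33% and 6.44% of all tested genes. No filter gave 0 higher in J against OVX (1.13%), 0 lower in P against J (0%), and 0 higher and 1 lower in PJ against J (3.56% and 2.95%). A pseudocount of 0.1 also gave 0 higher and 1 lower in PJ against J (7.26% and 5.29%). A fit of the 2 groups alone gave 2 lower in OVX against Sham (29.4%), 0 higher in J against OVX (5.18%) and 8 lower in P against OVX (13.5%). It gave 0 lower in P against J (0%) and 0 higher and 0 lower in PJ against J (2.22% and 2.05%). Without P 2 and PJ 3 there were 2 lower in OVX against Sham (31.6%) and 1 lower in J against OVX (6.44%). In P against J there were 1 higher and 2 lower (11.6% and 6.16%), and in PJ against J 13 lower (12.5%). Voom gave 0 higher in J against OVX (2.62%).

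With the replicate block, 36 members were higher and 1 lower in OVX against Sham (all tested genes 25.2% and 28.7%). Against OVX there were 3 and 15 in PJ (29.7% and 14.6%), 2 and 12 in P (24% and 15.2%) and 1 and 0 in J (3.1% and 2.39%). There were 0 and 3 in PJ against J (7.61% and 6.07%), 0 and 1 in P against J (3.22% and 3.14%), and 24 by the F test. Deviations of libraries with the same replicate number had correlations of -0.29 to 0.22, and in 0 of 7 comparisons did every pair exceed 0.1, so the numbers were not read as pairs.

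With each library left out in turn, the members called higher and lower ranged over 25 to 35 and 1 to 2 in OVX against Sham (medians 0.29 to 0.44), 2 to 3 and 10 to 19 in PJ against OVX (-0.21 to -0.11), 1 to 3 and 4 to 14 in P against OVX (-0.21 to -0.11), 0 to 1 and 0 in J against OVX (-0.09 to 0.03), 0 to 1 and 0 to 2 in P against J (-0.20 to -0.07), 0 to 1 and 0 to 9 in PJ against J (-0.19 to -0.05) and 0 in PJ against P (-0.05 to 0.04), and 18 to 29 by the F test. The shares of all tested genes also moved with the library left out. They were 21.5 to 26.8% higher in OVX against Sham. The shares called lower were 11.2 to 15.7% in PJ against OVX, 11.3 to 16.2% in P against OVX and 1.87 to 10.6% in PJ against J. With 3 libraries a group, differences inside the members' spread between libraries were not detectable.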
